A study of Mus musculus with 32 samples.

Results

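Auranofin given alone for 8 h was compared with control in 3T3-L1 adipocytes, a line of mouse fibroblasts that can be differentiated into lipid-laden fat cells. The comparison rested on the 2 arrays labelled auranofin at 8 h and the 2 arrays labelled control at 8 h, which were 4 of the 32 arrays of the series. Every gene with 1 symbol was read, 21506 in all. The auranofin cells had received 1 µM auranofin and no BCNU, and the control cells neither drug. Both had been differentiated in the same serum-containing medium. In the wider study cells were exposed for 2, 4, 8 or 24 h to auranofin (1 µM), to BCNU, a nitrosourea that inhibits glutathione reductase (100 µM), or to the pair of them, as a model of oxidative stress. Its other groups used here were 8 h of BCNU, 8 h of both drugs, auranofin at 2, 4 and 24 h, and the controls at 4 and 24 h and untreated cells at 0 h, each with 2 arrays. All groups came from 1 cell line, which limits them as a model of adipose tissue. Nothing in the labels says whether replicates were separate cultures. The p-values therefore reflect the spread between these arrays alone, and that spread may be technical.

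Auranofin is a gold compound that inhibits thioredoxin reductase, the selenoenzyme that uses NADPH to keep thioredoxin reduced. Reduced thioredoxin recycles the peroxiredoxins, which remove hydrogen peroxide, while glutathione and glutathione reductase form a parallel thiol system. The transcription factor NRF2, encoded by Nfe2l2, is held back by KEAP1 until reactive cysteines of KEAP1 are modified. It then drives genes for glutathione synthesis, thioredoxin recycling, quinone reduction and haem breakdown through a short DNA motif, the antioxidant response element.

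Levels are log2 values from the array, so a difference of 1 is a 2-fold change and levels of different genes cannot be set against each other. A gene was called when its limma p, adjusted by the Benjamini-Hochberg method over all genes, was under 0.05 and its log2 change over 0.5 in size. Replicate arrays correlated across genes with r = 0.995 in both groups, with a median absolute difference of 0.142 between the control arrays and 0.138 between the auranofin arrays. The cells carried the markers of their label. Over 7 adipocyte markers the mean level was 11.8 in each control array and 11.7 in each auranofin array. The defining preadipocyte markers averaged 9.11 and 9.12 in control and 9.06 and 8.99 with auranofin, so preadipocyte markers were detected in both groups. Adgre1 and Itgam of the macrophage markers, Kdr and Tie1 of the endothelial markers and Bglap of the muscle and bone markers averaged at or under 2.3 in control cells, a level taken as background. The other 8 of these 13 markers lay between 2.33 (Ptprc) and 4.56 (Cd68). None of the macrophage, endothelial, or muscle and bone markers was called. Since each array held the RNA of a whole culture, fewer cells expressing a gene and less of its RNA per cell cannot be told apart.

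After 8 h of auranofin alone, 197 genes were higher and 111 lower than in control cells, 308 in all or 1.43% of the genes tested. The rises were the larger changes. Among genes that changed by more than 1, 42 were higher and 6 lower, and the smallest adjusted p was 1.83e-09. Of the 12 largest rises, with locus-style symbols such as Gm and a number left out, 9 belonged to a list of NRF2 targets. The other 3 were the iron exporter gene Slc40a1, the phosphoinositide phosphatase gene Pip4p2 (1.71 ± 0.12) and the prolactin family gene Prl2c5 (1.58 ± 0.29), the last lost without auranofin replicate 2 (adjusted p = 0.0922) or control replicate 1 (0.117). The median gene changed by -0.0067. In all 308 called genes the 2 auranofin arrays lay wholly outside the range of the control arrays, as they did in 44.8% of all genes. The calls rested on the spread of all 32 arrays. With the 8 arrays of 8 h alone 24 genes were called, all of them higher and all among the 308. The count was 194 without auranofin replicate 1, 91 without auranofin replicate 2, 178 without control replicate 1 and 110 without control replicate 2, and 63 genes were called each time.

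**Figure D1:**
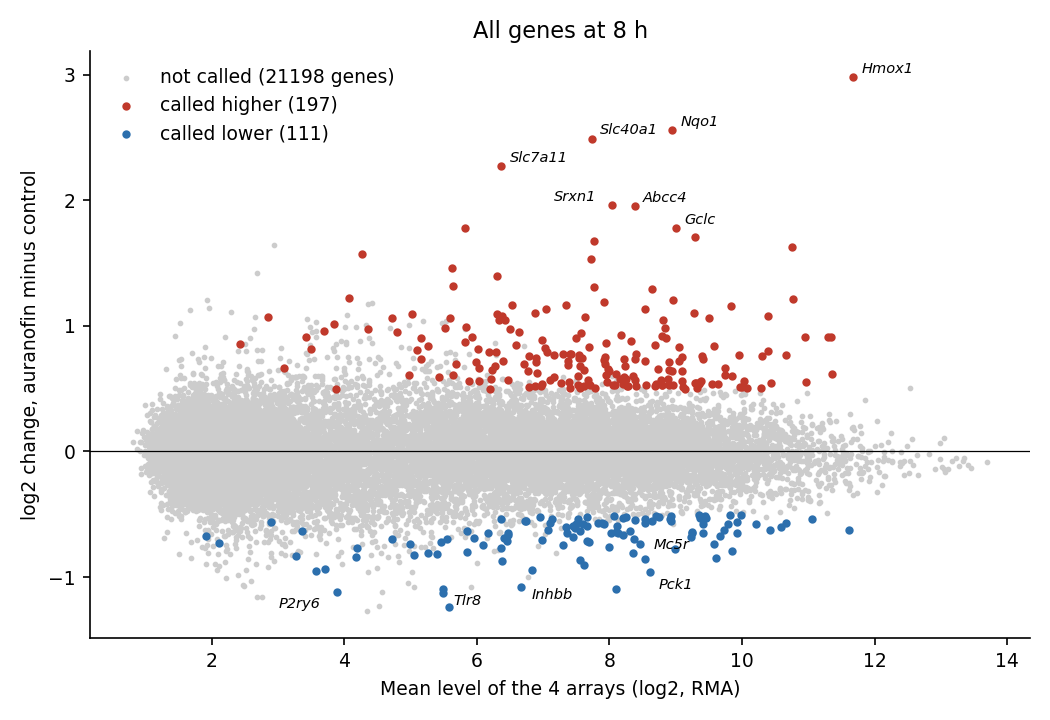
Each point is 1 of the 21506 genes, with the mean level of the 4 arrays at 8 h on the x axis (log2) and the log2 change, auranofin minus control, on the y axis. The 197 genes called higher (red) reach 2.98 at Hmox1, while all but 6 of the 111 called lower (blue) lie above -1.

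The 2 largest rises were in redox enzymes that NRF2 is known to drive. Hmox1 encodes haem oxygenase 1, which breaks haem down to biliverdin, iron and carbon monoxide. Its level was 10.43 and 9.95 in the control arrays and 13.16 and 13.17 in the auranofin arrays. The groups were far apart, and the difference of 2.98 ± 0.16 (SE, 2 arrays a group; 7.87-fold) had an adjusted p of 1.83e-09. Nqo1, which encodes a quinone reductase, stood at 7.63 and 7.70 in control and at 10.14 and 10.30 with auranofin. Its rise of 2.56 ± 0.15 was 5.88-fold (adjusted p = 3.09e-09). Srxn1 encodes sulfiredoxin, which repairs overoxidised peroxiredoxins, and stood at 7.08 and 7.04 in control against 8.94 and 9.09 with auranofin, a rise of 1.96 ± 0.16. Each of these 3 genes stayed called in the 8 h arrays alone and on leaving out any of the 4 arrays.

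Of 29 measured NRF2 targets, 23 were called higher and none lower, against 0.916% of all genes called higher and 0.516% called lower. All 29 had a positive change, from 0.04 to 2.98, with a median of 1.10. The called members named here included genes of detoxification and export and 1 gene of NADPH supply. Abcc4, an exporter of organic anions and drug conjugates, rose by 1.95 ± 0.20 from 7.41 and 7.40 to 9.37 and 9.35. Cbr3, a carbonyl reductase, rose by 1.68 ± 0.15, and the NADPH-producing pentose phosphate enzyme Pgd by 1.21 ± 0.09. Most NADPH-producing enzymes did not follow Pgd. Of 17 measured, 2 were called higher and none lower, 10 had a positive and 7 a negative change, and the median was 0.04. Osgin1, whose product restrains growth under oxidative stress, rose by 1.19 ± 0.13. The list of NRF2 targets held 18 to 19 calls when 1 of the 4 arrays was left out. It held 15 in the 8 h arrays alone and 4 when only the 4 arrays compared were fitted.

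The promoters of the called NRF2 targets were searched for the core of the antioxidant response element, TGACNNNGC, on both strands, in RefSeq windows of 300 bases (250 before to 50 after each start, build GRCm38.p6). Of the 23 called genes, 17 had a window, and 7 of these 17 held the letters, compared with 14% of all 27025 genes with a window. Over single windows the shares were 36.4% of 22 and 12.4% of 32851. Of all measured NRF2 targets with a window, called or not, 8 of 23 held the letters. These 23 include the 17 called genes, and whether called members differ from the others was not tested. Printed below are the 3 of the 7 called genes with the largest rise. The matching letters are in capitals, so that the match can be seen in its surroundings.
Srxn1: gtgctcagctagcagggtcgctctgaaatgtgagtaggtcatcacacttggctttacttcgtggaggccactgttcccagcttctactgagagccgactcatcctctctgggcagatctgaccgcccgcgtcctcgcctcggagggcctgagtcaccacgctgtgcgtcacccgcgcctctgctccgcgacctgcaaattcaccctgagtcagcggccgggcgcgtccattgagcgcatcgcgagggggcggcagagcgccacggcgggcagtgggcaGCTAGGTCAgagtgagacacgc
Abcc4: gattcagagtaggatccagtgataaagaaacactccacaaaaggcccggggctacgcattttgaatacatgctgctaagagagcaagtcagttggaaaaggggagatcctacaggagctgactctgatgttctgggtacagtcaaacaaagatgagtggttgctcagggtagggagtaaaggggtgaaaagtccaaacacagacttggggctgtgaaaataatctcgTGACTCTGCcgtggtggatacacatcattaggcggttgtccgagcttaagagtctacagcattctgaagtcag
Gsta3: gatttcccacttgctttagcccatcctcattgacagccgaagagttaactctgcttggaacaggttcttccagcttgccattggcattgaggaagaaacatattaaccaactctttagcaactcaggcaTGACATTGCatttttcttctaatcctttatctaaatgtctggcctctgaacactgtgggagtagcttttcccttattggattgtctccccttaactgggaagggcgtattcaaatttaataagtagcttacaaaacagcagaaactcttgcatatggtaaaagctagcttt
The Srxn1 window lies at chr2:152105274-152105573 on the + strand, and its match reads on the strand opposite to the gene, beginning at position 28 from the start. The Abcc4 window lies at chr14:118676882-118677181 on the - strand, with the match on the gene's strand at position -23. The Gsta3 window lies at chr1:21240335-21240634 on the + strand, with the match on the gene's strand at position -121. A match describes these letters only, and the windows without one may hold the element outside their 300 bases.

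Some genes of glutathione supply rose. Of 29 measured genes of glutathione metabolism, a list that shares members with the NRF2 targets, 7 were called higher and none lower. Over all genes 0.916% were called higher and 0.516% lower. Of the 29, 19 had a positive and 10 a negative change, and the median was 0.08. Slc7a11, which imports cystine for glutathione synthesis, stood at 5.34 and 5.12 in control and at 7.51 and 7.49 with auranofin, a rise of 2.27 ± 0.26 (4.84-fold, adjusted p = 3.65e-05). Gclc, the catalytic subunit of the rate-limiting enzyme, had 8.12 in both control arrays and 9.80 and 9.99 with auranofin, a rise of 1.78 ± 0.10. Gclm, the modifier subunit, rose by 1.63 ± 0.10, from 9.94 and 9.93 to 11.52 and 11.62. Both subunits thus shifted by a similar amount, whereas Gss, which performs the next step, changed by 0.33 ± 0.16 and was not called. Glutathione reductase, Gsr, rose by 0.77 ± 0.10. Among the transferases, which join glutathione to electrophiles, Gsta3 rose by 1.78 ± 0.22 from 5.29 and 4.56 to 6.76 and 6.65. Gsta4 rose by 0.66 ± 0.12 and Gstp1 by 0.61 ± 0.13, while Gstm1 changed by 0.38 ± 0.12 with an adjusted p of 0.116. The call of Gsta4 was lost without auranofin replicate 2 (adjusted p = 0.0605) or control replicate 2 (0.0712), and that of Gstp1 without any 1 of the 4 arrays (0.0802 to 0.139).

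In the thioredoxin system itself the change was limited to a few genes. Txnrd1, which encodes the cytosolic form of the enzyme that auranofin inhibits, had 8.36 in both control arrays and 9.57 in both auranofin arrays. This rise of 1.2 ± 0.11 (2.3-fold, adjusted p = 2.11e-06) was called in the 8 h arrays alone as well. The mitochondrial form Txnrd2 changed by -0.13 ± 0.11 and Txnrd3 by -0.11 ± 0.11, and neither was called. The thioredoxins Txn1 (0.16 ± 0.11) and Txn2 (-0.08 ± 0.11), their inhibitor Txnip (0.01 ± 0.08), and the peroxiredoxins Prdx2 (-0.13 ± 0.10) and Prdx3 (-0.05 ± 0.09) were not called. Of 20 measured genes of thioredoxins and peroxiredoxins, Txnrd1 and Srxn1 were the 2 called, both higher, and the list median was -0.04. The share called higher over all genes was 0.916%. Of 22 selenoprotein genes Txnrd1 was the 1 called, and 6 of the 22 had a positive change. Prdx1 and Prdx6 were not analysed here.

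**Figure D2:**
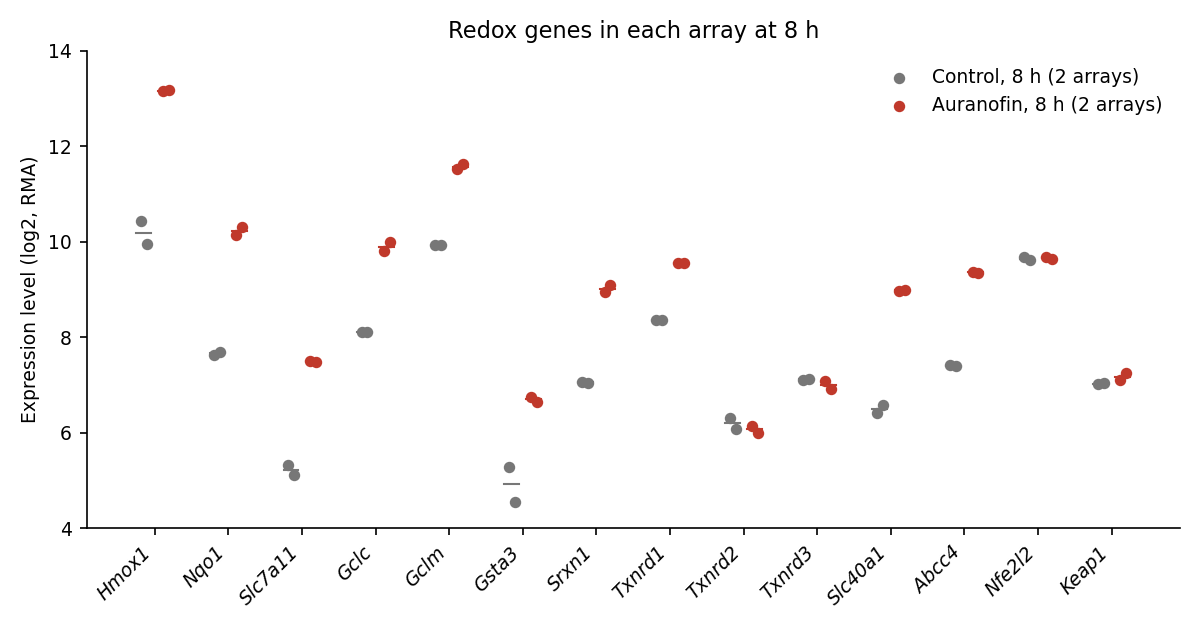
Level of 14 redox genes in each array (y axis, log2), with the 2 control arrays in grey, the 2 auranofin arrays in red and a line at each group mean. Hmox1 to Txnrd1, Slc40a1 and Abcc4 show auranofin arrays above both control arrays, whereas Txnrd2, Txnrd3, Nfe2l2 and Keap1 differ by 0.15 or less in the mean.

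NRF2 and KEAP1 act mainly at the protein level, and their transcripts were close to control. Nfe2l2 stood at 9.68 and 9.61 in control and at 9.68 and 9.65 with auranofin, a change of 0.02 ± 0.08. Keap1 changed by 0.15 ± 0.11. Of 12 measured regulators, 3 were called higher and none lower, against 0.916% and 0.516% of all genes. Sqstm1, an autophagy receptor that binds KEAP1, rose by 0.91 ± 0.10 from 10.54 and 10.46 to 11.40 and 11.41. Bach1, a repressor that competes with NRF2 at its motif, rose by 0.77 ± 0.12. Mafg, a small MAF protein with which NRF2 pairs on DNA, rose by 1.04 ± 0.20, though this call was lost without any 1 of the 4 arrays (adjusted p = 0.0593 to 0.0856). The list had 2 calls on leaving out any array and none in the 8 h arrays alone.

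Some genes of iron export and haem handling rose. Slc40a1 encodes ferroportin, the exporter of iron from cells, and stood at 6.41 and 6.58 in control and at 8.97 and 8.99 with auranofin. Its rise of 2.49 ± 0.23 was 5.62-fold (adjusted p = 1.81e-06) and was called in the 8 h arrays alone. Slc48a1, a haem transporter, rose by 0.91 ± 0.10, from 10.86 and 10.81 to 11.78 and 11.72. Of 23 measured genes of haem and iron handling, 6 were called higher and none lower, against 0.916% and 0.516% of all genes. Of the 23, 16 had a positive and 7 a negative change, and the median was 0.11. Hfe (0.75 ± 0.15), the mitochondrial transporter Abcb6 (0.71 ± 0.13) and the biliverdin reductase Blvrb (0.60 ± 0.12) were the other 3 called beside Hmox1. The list had 3 calls without auranofin replicate 1 or control replicate 1 and 4 without either of the other two arrays. Hfe and Blvrb lost their calls without any 1 of the 4 arrays (adjusted p = 0.0547 to 0.124), and Abcb6 without auranofin replicate 1 (0.0559) or control replicate 1 (0.0583). Among metal response genes Mt2, a metallothionein that binds zinc and copper, was the 1 of 19 called, with a rise of 0.91 ± 0.18 that was lost without either auranofin array (0.0666 and 0.0739) or control replicate 2 (0.118).

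Chaperone genes rose by smaller amounts. Of 29 measured heat shock genes, 11 were called higher and none lower, against 0.916% and 0.516% of all genes. Of the 29, 26 had a positive change, and the median was 0.32. Hsph1, a nucleotide exchange factor of the HSP70 cycle, stood at 7.79 and 8.15 in control and at 9.05 and 9.15 with auranofin, a rise of 1.13 ± 0.14 (2.19-fold, adjusted p = 0.000145). Hspa1b, an inducible HSP70, rose by 1.05 ± 0.14 from 8.14 and 8.42 to 9.31 and 9.35. Its near-identical neighbour Hspa1a was at background in both groups, so which of the 2 copies gave the signal is uncertain. Hsp90aa1, an inducible HSP90, rose by 0.89 ± 0.11. The small heat shock protein gene Hspb8 rose by 0.76 ± 0.13, the co-chaperone Dnajb1 by 0.66 ± 0.11 and the HSP70 relative Hspa4l by 0.68 ± 0.16. The list count fell to 6 without auranofin replicate 1, 4 without auranofin replicate 2, 5 without control replicate 1 and 6 without control replicate 2, and to 0 in the 8 h arrays alone. Hspb8 lost its call without auranofin replicate 2 (adjusted p = 0.0579), Dnajb1 without auranofin replicate 2 (0.0733) or control replicate 2 (0.053), and Hspa4l without either auranofin array (0.115 and 0.171) or control replicate 1 (0.287).

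The heat shock element, the site of heat shock factors, was searched as GAANNTTC, which reads the same on both strands. Of the 11 called heat shock genes, 10 had a promoter window and 4 of these held the letters, compared with 9.04% of all genes with a window. Of all measured members with a window, called or not, 11 of 23 held them. The 3 called genes with a match and the largest rise are printed, with the match in capitals.
Hsph1: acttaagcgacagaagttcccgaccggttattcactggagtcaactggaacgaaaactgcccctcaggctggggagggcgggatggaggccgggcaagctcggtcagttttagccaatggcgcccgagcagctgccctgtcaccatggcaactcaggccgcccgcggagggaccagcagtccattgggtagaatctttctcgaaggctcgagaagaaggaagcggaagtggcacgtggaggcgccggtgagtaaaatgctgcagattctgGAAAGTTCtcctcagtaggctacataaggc
Hspa1b: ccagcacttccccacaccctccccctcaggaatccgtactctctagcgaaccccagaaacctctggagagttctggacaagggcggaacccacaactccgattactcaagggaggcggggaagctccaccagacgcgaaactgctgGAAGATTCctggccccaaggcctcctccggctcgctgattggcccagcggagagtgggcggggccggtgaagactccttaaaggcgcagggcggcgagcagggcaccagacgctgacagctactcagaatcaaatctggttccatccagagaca
Hspb8: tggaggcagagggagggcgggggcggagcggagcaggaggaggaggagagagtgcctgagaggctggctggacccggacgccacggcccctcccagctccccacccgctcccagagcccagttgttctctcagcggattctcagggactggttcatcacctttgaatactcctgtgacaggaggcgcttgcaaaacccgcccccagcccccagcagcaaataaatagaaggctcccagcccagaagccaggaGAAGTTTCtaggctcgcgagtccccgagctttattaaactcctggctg
These windows lie at chr5:149636266-149636565, chr17:34959189-34959488 and chr5:116422815-116423114, all on the - strand. The matches begin at position 20 from the start in Hsph1, -104 in Hspa1b and 2 in Hspb8.

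Genes of other branches of protein quality control moved less. Their counts stand beside 0.916% of all genes called higher and 0.516% lower. Of 24 genes of the ER unfolded protein response none was called, and the ER chaperone Hspa5 changed by 0.47 ± 0.11 with an adjusted p of 0.0239, just under the size threshold. Of 32 proteasome genes none was called, although 31 had a positive change and the median was 0.25, with single values between -0.28 and 0.46. Of 34 genes of autophagy and lysosome, 3 were called higher: Sqstm1, the ATG8 family member Gabarapl1 (0.92 ± 0.10) and the lysosomal gene regulator Tfe3 (0.62 ± 0.10). The call of Tfe3 was lost without auranofin replicate 1 (adjusted p = 0.0572).

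Part of the integrated stress response rose as well. This pathway slows translation and induces ATF4, a factor that drives amino acid import and stress regulators. Of 36 measured genes, among them Slc7a11, 8 were called higher and none lower, against 0.916% and 0.516% of all genes. Of the 36, 30 had a positive change (median 0.27). Slc7a1, a cationic amino acid transporter, rose by 1.17 ± 0.18 from 6.95 and 6.58 to 7.87 and 8.00, and Ppp1r15a, which restores translation, by 1.08 ± 0.19. Both stayed called on leaving out any of the 4 arrays. The stress factors Atf3 (1.31 ± 0.23), Ddit3 (0.90 ± 0.18) and Trib3 (0.93 ± 0.21) and Atf4 itself (0.60 ± 0.13) were less stable. Atf3 lost its call without auranofin replicate 1 (adjusted p = 0.0542) or control replicate 1 (0.0856), and Atf4 without any 1 of the 4 arrays (0.0801 to 0.134). Ddit3 and Trib3 lost theirs without either auranofin array or control replicate 2, at 0.0615 to 0.179 and 0.129 to 0.287. The list had 3 calls without auranofin replicate 1, 4 without auranofin replicate 2, 5 without control replicate 1 and 4 without control replicate 2, and 1 in the 8 h arrays alone.

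Inflammatory signals rose in a few genes. Csf1, the growth factor of macrophages, stood at 7.17 and 7.05 in control and at 8.37 and 8.47 with auranofin, a rise of 1.31 ± 0.16 (2.47-fold, adjusted p = 5.51e-05). Of 32 genes of NF-kB and cytokines, 5 were called higher and none lower (median 0.21), against 0.916% and 0.516% of all genes. In control cells 7 of the 32 were at or under background. The monocyte chemokines Ccl2 (1.46 ± 0.29) and Ccl7 (0.91 ± 0.23) were called. Ccl2 had 4.46 and 5.33 in control against 6.45 and 6.26 with auranofin and lost its call without either auranofin array (adjusted p = 0.0876 and 0.0717) or control replicate 1 (0.178), and Ccl7 without any 1 of the 4 arrays (0.0953 to 0.353). Nfkb2, a subunit of the non-canonical NF-kB pathway, rose by 0.75 ± 0.13, lost without control replicate 1 (0.0508), and Tnfaip2 by 0.70 ± 0.15, lost without either auranofin array (0.16 and 0.057) or control replicate 2 (0.309). The list had 2 calls without either auranofin array or control replicate 1 and 3 without control replicate 2.

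Of the immediate early genes, 3 were called at this time. Egr1 had 5.80 and 6.09 in control and 6.23 and 6.11 with auranofin (0.23 ± 0.18), Fos changed by -0.09 ± 0.15 and Jun by 0.07 ± 0.16, and none was called. Of 36 members, Atf3 and the phosphatase gene Dusp5 (0.84 ± 0.20) were called higher and the phosphatase gene Dusp1 lower (-0.63 ± 0.14). The shares over all genes were 0.916% higher and 0.516% lower. Both phosphatases dampen mitogen-activated kinases. The list had no call without auranofin replicate 1 and 1 without each of the other three arrays, but 8 against the mean of all control groups, 7 with a trended robust prior and 6 with a filter on low levels. The call of Dusp5 was lost without any 1 of the 4 arrays (adjusted p = 0.0759 to 0.242), and that of Dusp1 without either auranofin array (0.145 and 0.127) or control replicate 2 (0.414).

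**Figure D3:**
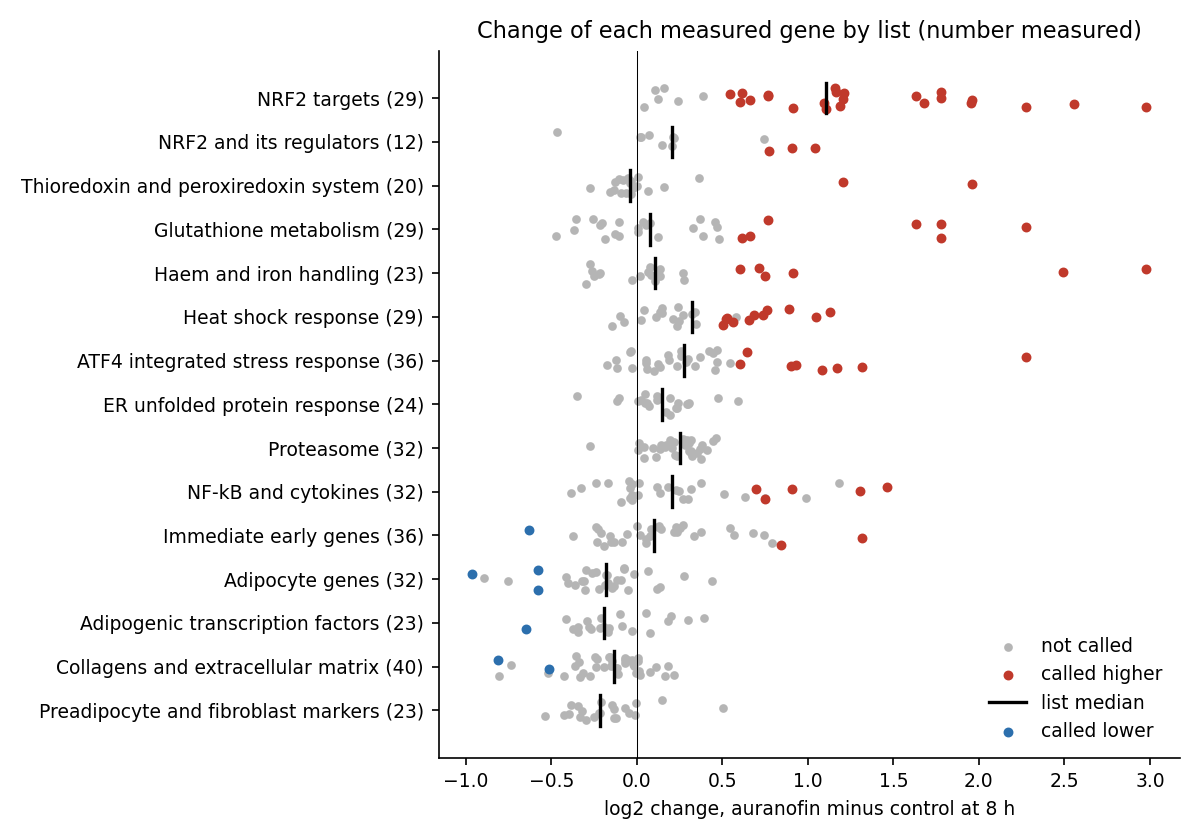
Log2 change at 8 h, auranofin minus control (x axis), of every measured gene in 15 lists (rows, with the number measured). Red points were called higher, blue lower and grey neither, and black bars mark list medians, of which that of NRF2 targets at 1.10 lies farthest right.

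The falls were smaller and few lay in any list. Inhbb, which encodes the activin beta B subunit secreted by fat cells, stood at 7.27 and 7.15 in control and at 6.30 and 5.96 with auranofin. Its fall of 1.08 ± 0.14 on the log2 scale had an adjusted p of 0.000223 and was called on leaving out any of the 4 arrays. Mc5r, a melanocortin receptor of adipocytes, fell by 0.86 ± 0.12 from 8.89 and 9.04 to 8.10 in both auranofin arrays and was equally stable. The purine receptor gene P2ry6 (-1.12 ± 0.19) and the transcription factor gene Osr1 (-1.10 ± 0.24) were lower by similar amounts. For P2ry6 the 8 h control arrays stood at 4.33 and 4.56 and the auranofin arrays at 3.04 and 3.61. Its controls at 4 h (3.62 and 3.36) and 24 h (3.55 and 3.49) lay near the auranofin values, so the difference was particular to the 8 h controls. P2ry6 lost its call without auranofin replicate 1 (adjusted p = 0.077) or control replicate 2 (0.0712), and Osr1 without any 1 of the 4 arrays (0.0773 to 0.201). The RNA sensor gene Tlr8 changed by -1.13 ± 0.23, from 6.0 and 6.11 to 4.87 and 4.99, and was also lost without any 1 array (0.0573 to 0.121). The others among the 12 largest falls, locus-style symbols left out, were Pck1, Ccbe1, Adamts6, Sowahd, Nrep, Fat4 and Fhl2, between -0.86 and -0.96. All of these lost their calls without at least 1 array, Adamts6 and Fhl2 only without control replicate 2 (0.0593 and 0.0622), Ccbe1 without auranofin replicate 2 (0.0679) or control replicate 2 (0.12), Nrep without auranofin replicate 2 (0.198) or either control array (0.0665 and 0.116), and Sowahd and Fat4 without any 1 of the 4 (0.0579 to 0.0877 and 0.134 to 0.157).

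Fat cell genes were mostly at control levels, with a slight shift downwards. Adipoq, which encodes adiponectin, had 11.57 and 11.54 in control and 11.51 and 11.57 with auranofin. The fatty acid carrier Fabp4 changed by -0.08 ± 0.09 and the adipogenic regulator Pparg by -0.16 ± 0.08, and none of these 3 was called. Of 32 adipocyte genes 3 were called lower and none higher, against 0.516% and 0.916% of all genes. A negative change was seen in 27 of the 32, and the median was -0.18. Pck1, the enzyme of glyceroneogenesis, stood at 9.05 and 9.15 in control and at 8.28 and 8.00 with auranofin (-0.96 ± 0.19). Angptl4, an inhibitor of lipoprotein lipase, fell by 0.58 ± 0.09, and the glycerol channel gene Aqp7 by 0.57 ± 0.13. Pck1 lost its call without auranofin replicate 2 (adjusted p = 0.157) or either control array (0.051 and 0.107), Aqp7 without any 1 of the 4 arrays (0.0826 to 0.241) and Angptl4 in none of these cases. The list had 2 calls without auranofin replicate 1 and 1 without each of the other three arrays.

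Among 23 adipogenic transcription factors, Srebf1, a regulator of lipogenesis, was the 1 called. It fell by 0.65 ± 0.12, from 8.21 and 8.47 to 7.82 and 7.57, a call lost without auranofin replicate 2 (adjusted p = 0.158) or control replicate 2 (0.152). Cebpa changed by -0.37 ± 0.10 (0.0709). Among 46 genes of insulin signalling and glucose transport, 2 were called higher and 2 lower, against 0.916% and 0.516% of all genes. The insulin receptor substrate gene Irs2 fell by 0.63 ± 0.13 and Tbc1d4, a Rab regulator of GLUT4 traffic, by 0.55 ± 0.14. The basal glucose transporter gene Slc2a1 rose by 0.55 ± 0.11, and Trib3, which binds AKT, is given above. Slc2a4, which encodes GLUT4, changed by -0.27 ± 0.09 with an adjusted p of 0.133. Irs2 lost its call without either auranofin array (0.0551 and 0.12) or control replicate 2 (0.151), and Tbc1d4 and Slc2a1 without any 1 of the 4 arrays (0.057 to 0.376 and 0.0703 to 0.0956). Of these 46 genes, 1 was called without auranofin replicate 1, none without auranofin replicate 2, 2 without control replicate 1 and none without control replicate 2.

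The remaining lists held few calls. Of 40 matrix genes, the thrombospondins Thbs1 (-0.81 ± 0.18) and Thbs2 (-0.51 ± 0.11) were called lower, against 0.516% of all genes. Both calls were lost without any 1 of the 4 arrays (adjusted p = 0.0894 to 0.147 and 0.0962 to 0.116). Of 23 preadipocyte and fibroblast markers none was called, while 21 had a negative change and the median was -0.21. None was called among 40 respiratory chain, 21 p53 target, 30 replication and mitosis, 25 DNA repair and 22 ribosomal protein genes. Over all genes 1.43% were called in either direction. At that share a list of this size would hold few calls or none, so having none does not set these lists apart. Over all the lists, which held 833 measured genes, 72 of the 308 called genes were members, and 236 were in none.

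The effect was then set beside the same treatment at other times, each with controls of its own time, except that the 2 h arrays were set against untreated cells at 0 h. Auranofin alone gave 15 calls at 2 h (0.0697%), all higher, 61 at 4 h (0.284%; 0.242% higher and 0.0418% lower) and 275 at 24 h (1.28%; 0.921% higher and 0.358% lower). Of the 308 genes called at 8 h, 43 were also called at 4 h, which was 14% of the 8 h calls and 70.5% of the 4 h calls, all in the same direction. At 24 h, 96 were called, 31.2% of the 8 h calls and 34.9% of the 24 h calls, with 95 in the same direction. The 197 genes higher at 8 h had a median change of 0.74 at 8 h, 0.33 at 4 h and 0.47 at 24 h. The 111 lower genes had medians of -0.65, -0.21 and -0.34. Both sets were chosen by their 8 h change, which by itself enlarges their 8 h medians. The medians therefore do not show a peak at 8 h. NRF2 targets held 4 calls of 29 at 2 h, 13 at 4 h, 23 at 8 h and 25 at 24 h, all higher.

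The difference between times was tested itself. Between 8 and 2 h, a test added after the values had been seen, 20 genes (0.093%) differed, 19 (0.0883%) with the higher effect at 8 h and 1 (0.00465%) with the higher effect at 2 h. The 2 h effect was against untreated cells at 0 h, so time in culture and time of drug cannot be told apart in it. In that test 1584 genes had an unadjusted p under 0.05. Nqo1 had an effect of 0.24 ± 0.15 at 2 h, 2.31 ± 0.21 below that at 8 h (adjusted p = 2.41e-05). The differences were 2.03 ± 0.28 for Abcc4, 1.23 ± 0.15 for Gclm, 1.25 ± 0.17 for Pip4p2, 1.04 ± 0.14 for Gclc and 0.83 ± 0.12 for Pgd, and these 6 genes stayed called on leaving out any of the 8 arrays. The differences of Gsta3 (1.82 ± 0.30) and Srxn1 (1.32 ± 0.22) were each lost without 6 of the 8 arrays (adjusted p = 0.06 to 0.111 and 0.0606 to 0.136). That of Cbr3 (1.40 ± 0.21) was lost without auranofin replicate 2 of 8 h or untreated replicate 2 (0.051 to 0.0888), and that of Slc48a1 (0.75 ± 0.14) without any 1 array (0.113 to 0.205). Egr1 was the 1 gene with the higher effect at 2 h, at 1.79 ± 0.18 (difference -1.56 ± 0.26, adjusted p = 0.013). Its call was lost (0.0909 to 0.131) without any 1 of 4 arrays, and the count of 20 fell most without the same arrays, to 8 without auranofin replicate 2 of 8 h, 10 without control replicate 2 of 8 h, 8 without auranofin replicate 1 of 2 h and 7 without untreated replicate 2.

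Fewer genes were called between the other times. Between 8 and 4 h, the difference of the 2 effects was called in Nqo1 alone (0.00465% of genes), while 1267 genes had an unadjusted p under 0.05. Nqo1 stood at 7.76 and 7.70 in control and 8.90 and 8.59 with auranofin at 4 h. Its effect was thus 1.01 ± 0.15 at 4 h, 1.54 ± 0.21 below that at 8 h (adjusted p = 0.0146), a call lost on leaving out 6 of the 8 arrays in turn, each but auranofin replicate 1 of 4 h and of 8 h (0.0926 to 0.199). The Hmox1 effect was 2.45 ± 0.16 at 2 h and 2.32 ± 0.16 at 4 h, and its difference from that at 8 h was called neither against 2 h (0.53 ± 0.23, adjusted p = 0.635) nor against 4 h (0.66 ± 0.23, adjusted p = 0.72).

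Between 8 and 24 h, 7 genes (0.0325%) differed in effect, 1 with the higher value at 8 h and 6 (0.0279%) with the higher value at 24 h. Gclc was the 1 higher at 8 h, with 1.78 ± 0.10 against 0.94 ± 0.10 at 24 h (difference 0.84 ± 0.14, adjusted p = 0.0338). P2rx7, an ATP-gated channel gene, had 2.45 and 3.44 in control and 2.68 and 2.61 with auranofin at 8 h. At 24 h it stood at 2.57 and 2.56 in control and at 4.81 and 5.19 with auranofin, so that its effect was 2.73 ± 0.33 smaller at 8 h (adjusted p = 0.00181). Thbs1 changed sides, at -0.81 ± 0.18 at 8 h and 0.93 ± 0.18 at 24 h (difference -1.74 ± 0.25, adjusted p = 0.0109). Hspa1b, the matricellular gene Ccn1 and Pdlim2 also had higher effects at 24 h, at 1.05 against 2.15, 0.14 against 1.28 and -0.38 against 0.72. The call of P2rx7 remained on leaving out any of the 8 arrays. That of Hspa1b was lost without any 1 of them (adjusted p = 0.0585 to 0.258), and that of Gclc without any but replicate 1 of the auranofin arrays of either time (0.115 to 0.264). Ccn1 lost its call without replicate 2 of the auranofin arrays of either time, either control array of 24 h or control replicate 1 of 8 h (0.086 to 0.199). Pdlim2 lost its call without any of the 4 auranofin arrays or control replicate 1 of either time (0.0669 to 0.12). Thbs1 lost its call without auranofin replicate 2 or control replicate 1 of 8 h, or either control array of 24 h (0.0585 to 0.0961).

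**Figure D4:**
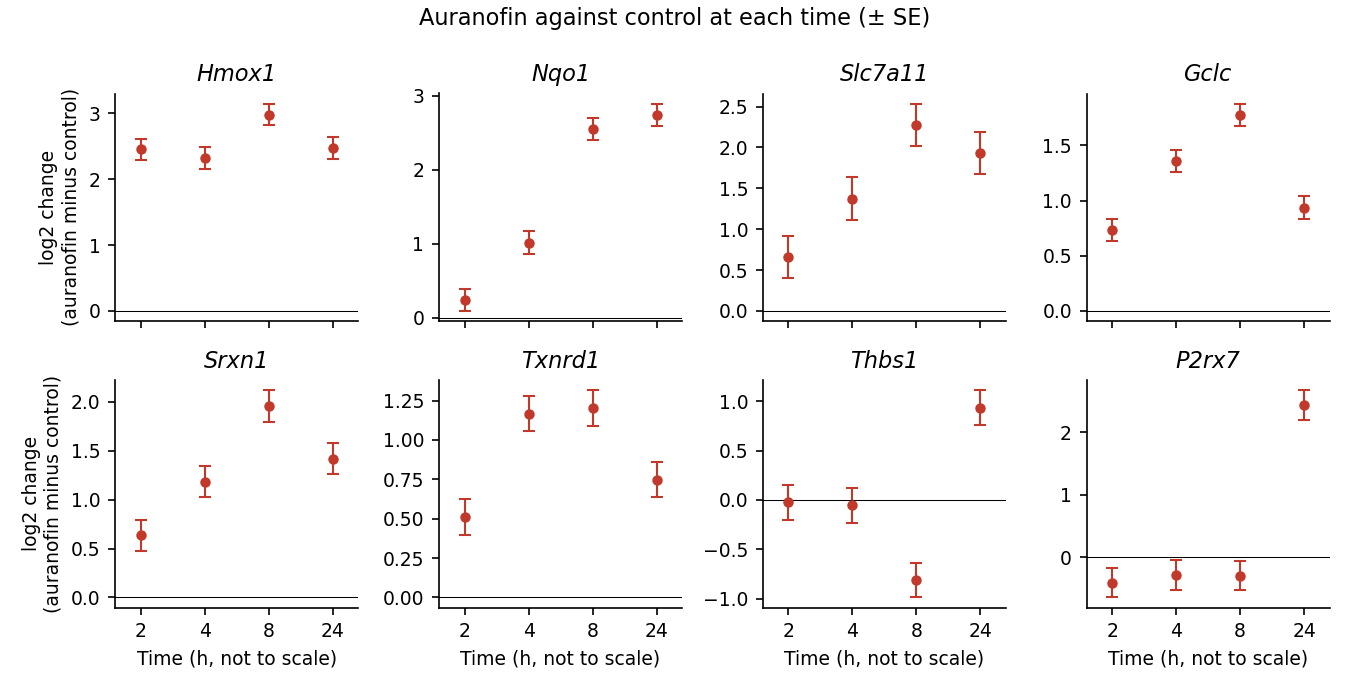
Log2 change of auranofin against control (y axis, with the SE as bars) at 2, 4, 8 and 24 h for 8 genes, each panel on its own scale; the 2 h values are against untreated cells at 0 h. Nqo1 lies at 1.01 at 4 h and 2.56 at 8 h, Hmox1 above 2 throughout, and Thbs1 and P2rx7 stand highest at 24 h.

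Auranofin was next compared directly with BCNU at 8 h, with no control in between. Of all genes, 138 (0.642%) were higher with auranofin and 50 (0.232%) lower, 188 in all or 0.874%. Among the 29 NRF2 targets 2 were higher with auranofin and none lower. Nqo1, 1 of these, had 9.63 and 9.52 with BCNU, so that auranofin stood 0.64 ± 0.15 above it (adjusted p = 0.0416). Abcc4, the other, had 8.33 and 8.36 with BCNU, 1.01 ± 0.20 below auranofin, and Slc40a1 had 7.79 and 8.17, 1.00 ± 0.23 below (adjusted p = 0.0374). For the other targets set side by side no difference was called, with values of 0.38 ± 0.16 for Hmox1, 0.12 ± 0.26 for Slc7a11, 0.14 ± 0.16 for Srxn1, 0.15 ± 0.10 for Gclm and -0.04 ± 0.11 for Txnrd1. Ddit3 lay within its control range under BCNU (8.33 and 8.32) and stood 0.97 ± 0.18 higher with auranofin (adjusted p = 0.011). Angptl4 (-0.79 ± 0.09) and Thbs1 (-0.98 ± 0.18) were lower with auranofin than with BCNU. Angptl4 stayed called on leaving out any of the 4 arrays. Nqo1 and Abcc4 lost their calls without any 1 of them (adjusted p = 0.12 to 0.325 and 0.0522 to 0.133). Slc40a1 (0.164 to 0.324), Ddit3 (0.0779 to 0.11) and Thbs1 (0.0722 to 0.102) lost theirs without either auranofin array or BCNU replicate 1.

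The largest differences between the single drugs were in genes not called with auranofin against control. Tuba1a, an alpha tubulin gene, stood at 7.37 and 7.21 in control, 7.32 and 7.30 with auranofin and 5.73 and 6.03 with BCNU (auranofin over BCNU, 1.43 ± 0.16). The others with auranofin higher were Abcb1b (1.61 ± 0.37), Lrrc8c (1.48 ± 0.28), Platr25 (1.48 ± 0.30) and Ttc21b (1.25 ± 0.13). Those with auranofin lower were Muc13 (-1.26 ± 0.29), H2bc21 (-1.09 ± 0.24), the receptor gene Tnfrsf12a (-1.07 ± 0.16), the matrix protease gene Mmp3 (-1.03 ± 0.23) and the desmosomal gene Pkp2 (-1.02 ± 0.13). The comparison rested strongly on single arrays, with 54 calls without auranofin replicate 1, 30 without auranofin replicate 2 and 20 without BCNU replicate 1, and 0 calls in the 8 h arrays alone. Without BCNU replicate 2 there were 209. Of the 10 genes, Tuba1a, Ttc21b and Pkp2 stayed called on leaving out any of the 4 arrays. Lrrc8c and Mmp3 lost their calls without any 1 of them (adjusted p = 0.0515 to 0.133 and 0.0747 to 0.234). Abcb1b (0.173 to 0.285) and Platr25 (0.126 to 0.157) lost theirs without either auranofin array or BCNU replicate 2, and H2bc21 without either auranofin array or BCNU replicate 1 (0.149 to 0.313). Muc13 (0.392 and 0.327) and Tnfrsf12a (0.0515 and 0.0734) lost theirs without auranofin replicate 2 or BCNU replicate 1.

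When BCNU was added to auranofin, far more genes moved. Against auranofin alone at 8 h, 1183 genes (5.5%) were higher with both drugs and 1069 (4.97%) lower. Centring every array on its median changed the split to 802 higher and 1575 lower. These comparisons share the auranofin arrays with those above, so the values of each are given side by side. Among the 29 NRF2 targets 13 were lower with both drugs than with auranofin alone and 1 higher, with a median difference of -0.33. Nqo1 stood at 8.78 and 8.52 with both drugs, 1.57 ± 0.15 below auranofin alone (adjusted p = 7.31e-07), although still 0.99 ± 0.15 above control. Slc40a1 had 7.08 and 6.96, a difference of -1.96 ± 0.23, and Abcc4 8.11 and 7.58, a difference of -1.51 ± 0.20. Gclm (-0.55 ± 0.10), Srxn1 (-0.59 ± 0.16) and Gsr (-0.62 ± 0.10) were also lower with both drugs, whereas Hmox1 (-0.24 ± 0.16) and Slc7a11 (-0.08 ± 0.26) were not called. The calls of Gclm and Srxn1 were lost without replicate 2 of auranofin or of both drugs, Gclm at a difference of -0.5 and -0.49, at the edge of the size threshold, and Srxn1 at an adjusted p of 0.119 and 0.0922. Osgin1 was the 1 target higher with both drugs, at 10.69 and 10.76 (2.21 ± 0.13).

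Immediate early genes had the largest median difference of all lists between both drugs and auranofin alone, at 0.95. Of 36 members 27 were higher with both drugs and none lower, against 5.5% and 4.97% of all genes. Egr1, near control under auranofin, reached 10.38 and 10.61 with both drugs (4.32 ± 0.18, adjusted p = 4.63e-12), and Fos 8.48 and 8.69 (4.10 ± 0.15). Atf3, which auranofin alone had raised to 6.40 and 6.20, stood at 10.10 and 10.12 with both. Hsph1 (1.25 ± 0.14), Hspa1b (1.94 ± 0.14) and Ddit3 (1.56 ± 0.18) were also higher with both drugs, as were 10 of 29 heat shock genes. Csf1 and Ccl2, raised by auranofin alone, were lower with both drugs, with differences of -1.12 ± 0.16 and -1.94 ± 0.29. The largest falls below auranofin alone, Slc40a1 apart and locus-style symbols left out, were in Ldhal6b (-2.29 ± 0.28), Phxr4 (-2.22 ± 0.23), Zf12 (-2.10 ± 0.25) and Gdap10 (-2.0 ± 0.16). Auranofin alone had changed none of these 4 by a called amount.

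**Figure D5:**
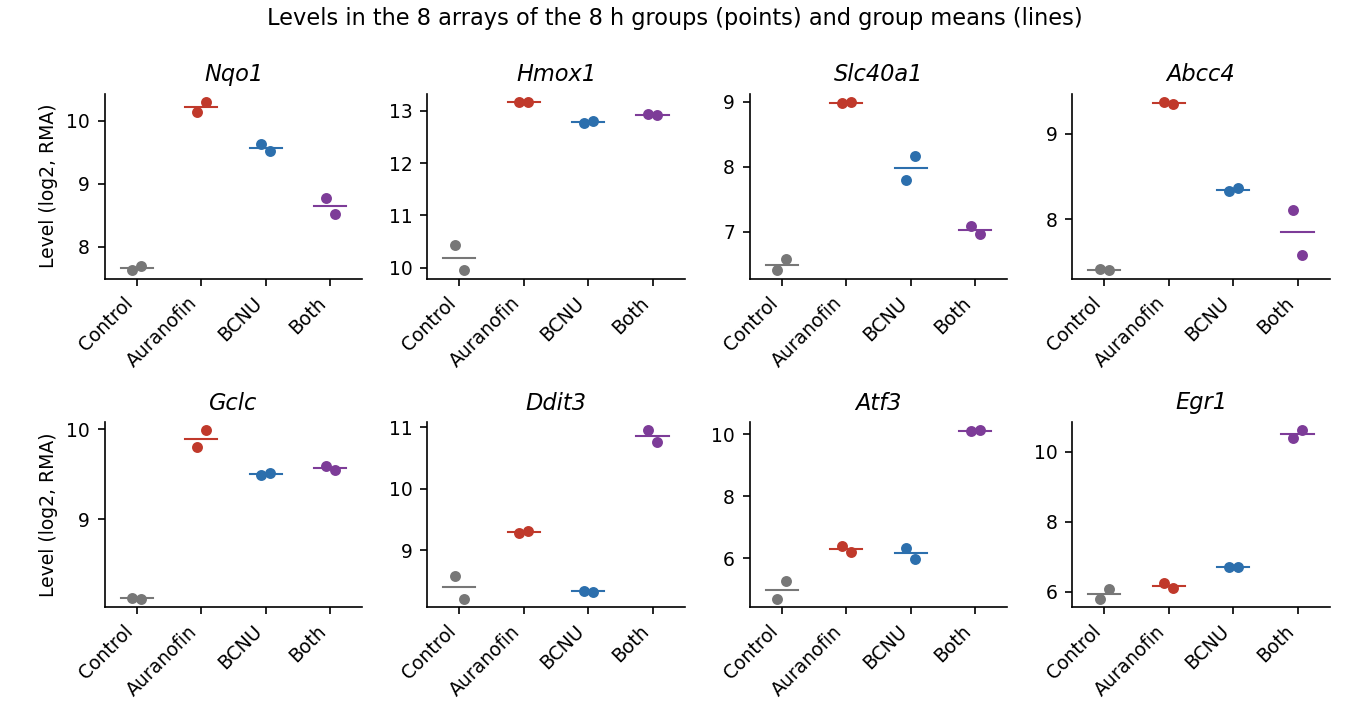
Level (y axis, log2, each panel on its own scale) of 8 genes in the 8 arrays of the 8 h groups, with points for arrays and lines for group means. Nqo1, Slc40a1 and Abcc4 are highest with auranofin alone, while Ddit3, Atf3 and Egr1 are highest with both drugs.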

How the data were processed

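The authors summarised Affymetrix Mouse Gene 2.1 ST arrays with RMA, which corrects background, equalises the distributions (quantile normalization) and summarises probes, and deposited log2 expression values after removing transcripts without an approved symbol. Quantile normalization gives all arrays 1 distribution, so a shift of total RNA would not be seen. Of 25293 probe sets, 22030 had 1 symbol in the platform annotation, and 465 genes with several probe sets took their median, leaving 21506 genes. The 685 probe sets naming several genes and the 2578 naming none were not tested as genes. Differences were tested with limma 3.58.1 in R 4.3.3: 16 group means over 32 arrays, 16 residual degrees of freedom, a two-sided moderated test (prior SD 0.149), Benjamini-Hochberg adjustment within each contrast, and the study's thresholds, an adjusted p under 0.05 and a log2 change over 0.5. Every adjusted p is from limma and every ± is the SE; the median SE was 0.173, and 2 arrays a group limit the precision. The test was checked on simulated data. Background was set at 2.3, the highest lower quartile of any array.

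Named genes were the 12 largest rises and falls with non-overlapping arrays, up to 6 called members a list, a fixed set of redox, stress and adipocyte genes, and the 5 largest rises and falls of the other contrasts; locus-style symbols were counted only. The members, lists and genes were chosen with earlier results of these data known, so lists are described by counts and medians, without a test. The 8 h minus 2 h difference was added after the values had been seen. Promoter sequences are from RefSeq (GRCm38.p6). Alternatives changed the arrays fitted, scaling, low-level filter, variance model, probe set rule, thresholds, controls and each array.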

Additional observations from a re-analysis of the deposited data

Results flagged for a closer look

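The first group of results drew attention because the effect of auranofin differed between times by a test of the difference itself. The Nqo1 effect was 1.54 larger at 8 h than at 4 h on the log2 scale. With the 2 h effect, measured against untreated cells at 0 h, taken from the 8 h effect, the difference was 2.31 for Nqo1, 2.03 for Abcc4, 1.82 for Gsta3, 1.40 for Cbr3, 1.32 for Srxn1, 1.25 for Pip4p2, 1.23 for Gclm, 1.04 for Gclc, 0.83 for Pgd, 0.75 for Slc48a1 and -1.56 for Egr1. Between 8 and 24 h, with the 24 h effect taken from the 8 h effect, the difference was 0.84 for Gclc, -1.14 for Ccn1, -1.10 for Hspa1b, -0.94 for Nrg1, -2.73 for P2rx7, -1.11 for Pdlim2 and -1.74 for Thbs1. Nrg1, a growth factor of the EGF family, was outside the rule for named genes and is given because it completes the 7. Control levels of P2rx7 at 8 h lay at 2.45 and 3.44, close to the background of 2.3, and the rise at 24 h was the larger part of its difference.

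The second group came from probe sets that the comparison did not use. Of 685 probe sets with several symbols, 8 were called higher with auranofin at 8 h and 0 lower, the largest rise being 1.95. Of 2578 with no symbol, 8 were called higher and 8 lower, from -1.25 to 1.53. With 2 arrays a group, no array could be tested as an outlier.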

How the results depend on the processing

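Directions held where checked: no named gene called against control changed sign under any alternative run. The 23 sign changes seen were in named genes called in neither fit. In the other contrasts the check covered the genes with the largest rises and falls, and none changed sign while called. Other genes named there, and the genes of the 8 h minus 2 h difference, were not checked under every alternative. Of 74 named genes called against control, 59 lost the call in the 8 h arrays alone, 69 when only the 4 arrays compared were fitted, and 28 stayed called on leaving out each array. The count of 308 became 24 in the 8 h arrays alone, 5 with the 4 arrays alone and 48 at a log2 change over 1, and 91 to 194 without single arrays. Scaling, probe set rule, low-level filter, variance model and another control mean gave 294 to 384. The members shifted more than these totals. Against the mean of all control groups 384 genes were called, of which 243 were among the 308. Median centring gave 294, of which 276 were among the 308, and 81 lower genes against 111. Both drugs against auranofin gave 2252 calls, 509 with the groups compared alone, 508 at over 1, 3455 with no size threshold and 1563 to 2130 without single arrays. Auranofin against BCNU gave 188, 0 in the 8 h arrays alone, 0 with the groups compared alone, 28 at over 1 and 20 to 209 without single arrays. In those limma fits with 0 calls, 2178 genes in the 8 h arrays and 2129 in the groups compared had an unadjusted p under 0.05. The 8 h minus 4 h difference gave 1 call, 0 with the groups compared alone, 4 with a trended robust prior and 0 to 3 without single arrays. The 8 h minus 2 h difference, added later, gave 20, 0 with the groups compared alone, 53 with a trended robust prior, 13 at over 1 and 7 to 21 without single arrays. The 8 h minus 24 h difference gave 7, 0 with the groups compared alone, 11 with the highest probe set, 11 with the low-level filter, 18 with a trended robust prior and 1 to 9 without single arrays. Where the groups compared alone gave 0 between times, 1417 genes (8 minus 4 h), 1731 (8 minus 2 h) and 1482 (8 minus 24 h) had an unadjusted p under 0.05. Fewer arrays were fitted in the smaller fits; for the other shifts the cause was not tested.

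No shared shift was detected between same-numbered arrays, though the labels do not say whether they were paired by design. Same-numbered auranofin and control arrays at 8 h had deviations correlated at r = -0.01 across 15685 genes. Over all pairs of groups r ran from -0.06 to 0.08. A replicate block in the model gave 294 calls against 308, of which 288 were shared, 2264 against 2252 for both drugs over auranofin, 196 against 188 for auranofin over BCNU, 18 against 20 between 8 and 2 h, 1 against 1 between 8 and 4 h and 10 against 7 between 8 and 24 h. In 3 called genes a group mean lay at or under background.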

Other observations

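Ribosome assembly factors are proteins that process and fold ribosomal RNA in the nucleolus. Their list was drawn up after the values had been seen, so its share of calls is no evidence about the group. It is described without a test. Of 58 measured members, 10 were called higher and none lower, against 0.916% of all genes called higher, 53 had a positive change and the median was 0.29. BCNU and both drugs at 8 h, set against the same control arrays, had medians of 0.36 and 0.27, and in the direct comparison of auranofin with BCNU none of the 58 was called (median -0.11). Between both drugs and auranofin, 1 was called higher and 3 lower (median -0.07). At 24 h of auranofin none was called and the median was 0.07. Structural proteins of the cytosolic ribosome held no call among 22 measured genes at 8 h, where 1.43% of all genes were called. The 2 lists were chosen in different ways, so their counts cannot be set against each other.

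Receptors of hormones that start or restrain lipolysis formed a second list drawn up after the values had been seen, so its share of calls is no evidence about the group. Of 12 measured members 5 were called lower and none higher, against 0.516% of all genes called lower, and the median was -0.56. Mc5r was among them. Neither of these added lists was counted on leaving out single arrays. Compared directly with BCNU at 8 h, 3 of the 12 were lower with auranofin, and at 24 h of auranofin 3 were called lower against control.

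The clock genes Arntl and Dbp moved in opposite directions at 8 h, by 0.54 ± 0.10 and -0.52 ± 0.13. Both calls were lost on leaving out single arrays, Arntl without auranofin replicate 2 (adjusted p = 0.0509) or control replicate 1 (0.0777) and Dbp without any 1 of the 4 (0.0954 to 0.396).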
